A study of Komagataella phaffii GS115 with 12 samples.

Results

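In the methylotrophic yeast Komagataella phaffii GS115, also called Pichia pastoris, 100 of 2390 array rows stood highest in the strain G12-CBS after 72 h of methanol induction. The rows were chosen by the deposited values themselves: the lowest of the 3 G12-CBS 72 h arrays had to lie above the highest of the other 9 arrays. In all 102 rows met this rule, 4.27% of the table. YNL190W and YKL138C were among them and are left out here, as is YDR502C, which was at the same top level in G12-CBS and DS56 and did not meet the rule. By the same rule 74 rows stood highest in the empty-vector control, 65 in DS56 and 71 in G12-CBS at 24 h, and 105 rows stood lowest in G12-CBS at 72 h. Every contrast of G12-CBS at 72 h with another group was used by the rule, so those differences are given as a description, with no test.

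Total RNA from 12 separate cultures was hybridised to 12 one-colour Cy3 arrays, 3 for each of 4 groups. The control was GS115/3.5K, which is GS115 with the empty vector pPIC3.5K integrated, at 72 h of methanol. GS115/DS56, called DS56 here, carried DS56, a recombinant methionine adenosyltransferase gene, and was also taken at 72 h. G12-CBS carried the same gene and in addition had CYS4 lowered by the weak promoter G12, and its cultures were sampled at 24 h or 72 h. The 3 groups at 72 h had received L-methionine at 24 h of induction and the 24 h cultures had not, so time and feeding cannot be told apart. The sample titles write the strains as GS115/3.5K_LP, GS115/DS56_HP and G12-CBS_HP. The labels class the control and the G12-CBS 24 h cultures as low and the other 6 cultures as high in S-adenosyl-L-methionine production. The titles of the 24 h cultures nevertheless carry the same G12-CBS_HP as those of the 72 h cultures. All strains shared the GS115 background and the methanol medium, and the labels do not say whether a strain stands for 1 clone or several. YGR155W, the S. cerevisiae name of CYS4, is not among the rows analysed here, so the lowering of CYS4 was not checked.

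Methionine adenosyltransferase joins L-methionine and ATP into S-adenosyl-L-methionine, the main methyl donor of the cell. After methyl transfer the product is hydrolysed to homocysteine, which is either methylated back to methionine or drawn by the CYS4 product, cystathionine beta-synthase, towards cysteine and glutathione. On methanol, K. phaffii fills with peroxisomes, where methanol is oxidised to formaldehyde.

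The rows carry systematic names of Saccharomyces cerevisiae open reading frames, for example YGR049W. Gene symbols and roles given below are those of the S. cerevisiae gene of that name, as background. The design of the probes was not among the data used, so no row is shown to measure a K. phaffii gene of that role. Values are log2 levels, compared only within a row. The median of all values was 6.64, and 83 of the 100 rows had a mean below 7 over the other 9 arrays, where 82.1% of all rows lay. Detection flags were not used here, so levels near the median are not shown to lie above background. The median of an array was 6.59 to 6.62 in the control and G12-CBS 72 h cultures and 6.65 to 6.66 in the rest. When this offset was taken out by subtracting array medians, 98 of the 100 rows met the rule again, and 99 did so after quantile normalization.

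Most of the differences were small. The fold is taken here between the mean of the 3 G12-CBS 72 h arrays and the mean of the nearest group, the highest of the other 3. It ran from 1.05 to 7.56 with a median of 1.38. It was at least 2 in 14 rows, between 1.5 and 2 in 26, and below 1.5 in 60. The gap, the lowest G12-CBS 72 h value minus the highest other value, ran from 0.0006 to 2.58 on the log2 scale with a median of 0.17. It was at least 1 in 7 rows and at least 0.5 in 20, and below 0.1 in 36. In 80 rows the other 9 arrays spread over a range wider than the gap.

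**Figure D1:**
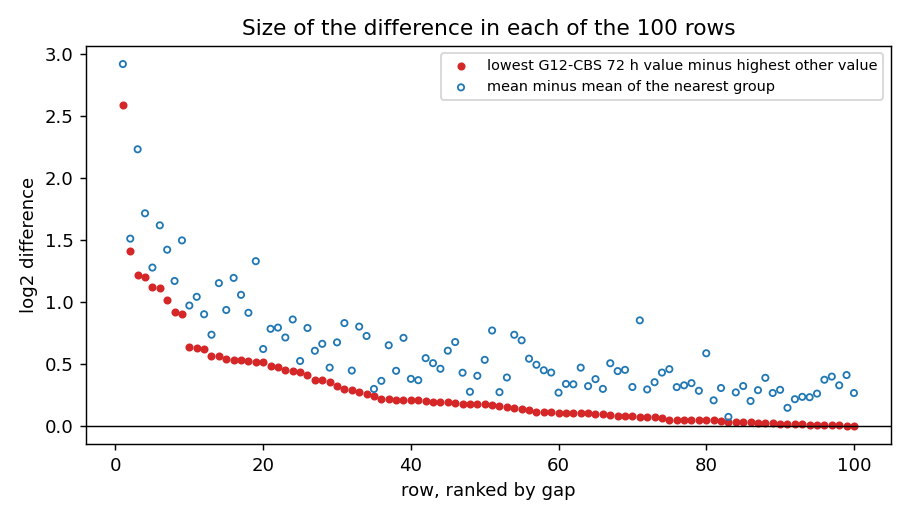
For each of the 100 rows, ranked by gap on the x axis, the y axis gives the gap (filled points) and the difference of means from the nearest group (open points) on the log2 scale. The filled points start at 2.58 and come close to 0 at the right, with 36 rows below 0.1.

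Levels in G12-CBS at 72 h ran from 6.65 to 13.83 with a median of 7.16, against a median of 6.54 for the mean of the other 9 arrays. Of the 100 rows, 9 had a mean of 8 or above over those arrays, where 6.69% of all rows lay. These 9 were YLR037C, YLL025W, YDR106W, YAR020C, YPR102C, YJR120W, YML028W, YBL072C and YJR009C, and their folds ran from 1.05 to 2.85. The rows with the largest folds, YGR049W at 7.56 and YHR010W at 4.69, lay between 6.62 and 7.83 on all other arrays. The median SD of the 100 rows was 0.17 in G12-CBS at 72 h and 0.14 in the control, and it was 0.10 in DS56 and 0.09 in G12-CBS at 24 h (n = 3 each). Over all rows it was 0.18, 0.19, 0.11 and 0.09 in the same order, so this pattern is that of the whole table. The highest other array was a control array in 53 rows, a 24 h array in 30 and a DS56 array in 17. Of the 3 G12-CBS 72 h arrays, replicate 1 was the highest in 27 rows, replicate 2 in 32 and replicate 3 in 41, and they were the lowest in 35, 40 and 25. Their medians over the 100 rows were 7.12, 7.12 and 7.26. Neither the counts of the highest other array nor those of the replicates were set against a share over all rows. They are not read as traits of the 100 rows.

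**Figure D2:**
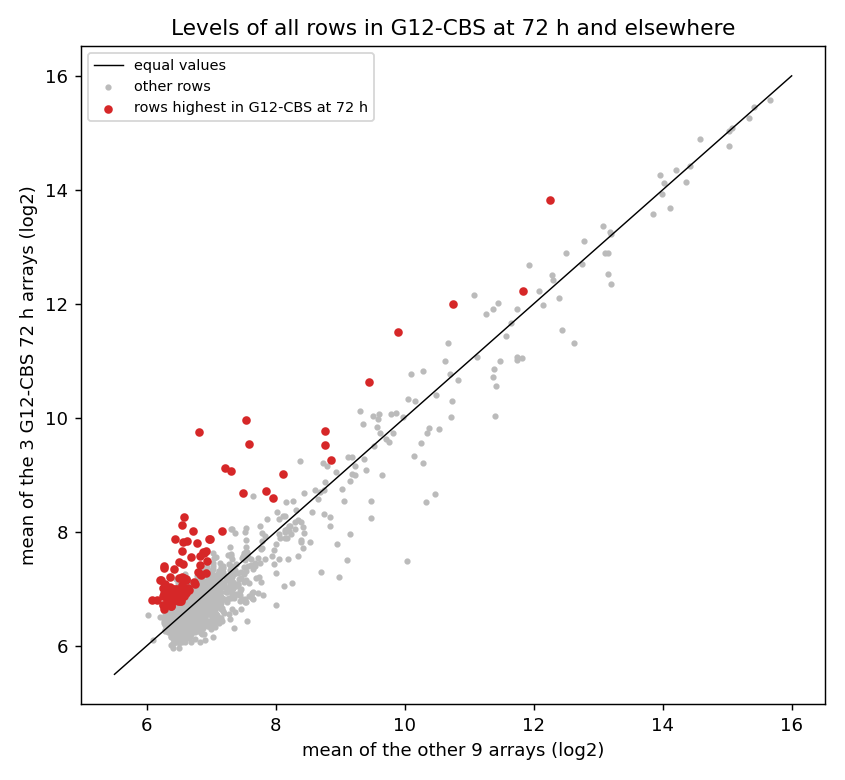
Each point is a row, with the mean of the other 9 arrays on the x axis and the mean of the 3 G12-CBS 72 h arrays on the y axis, both log2 levels. The 100 rows (red) lie above the line of equal values, most of them at levels near 7 and close to the other rows (grey).

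The rule has a sharp edge. The 3 rows that met it most narrowly were YPR164W, YDL074C and YFL004W, with gaps of 0.0069, 0.0027 and 0.0006. YFL004W, named for a subunit of the vacuolar transporter chaperone complex, was at 6.55, 6.68 and 6.73 in G12-CBS at 72 h, and its highest other value was 6.55 in control replicate 1. Among the rows that missed it by least, 6 had a gap of exactly 0. One of these is YDR225W, named for histone H2A, with 9.92, 10.00 and 10.03 in G12-CBS at 72 h and 9.92 in control replicate 3. The others with a gap of 0 include YBL030C and YFR031C-A, where a control array shared the lowest G12-CBS value at 10.76 and 12.42. Bright values fall on few separate levels in this table, so such ties are common there.

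Of the 100 names, 80 were assigned a role from S. cerevisiae and sorted into classes, and 20 were not. The classes were RNA and transcription with 13 rows, cytoskeleton and cell cycle with 10, vacuole and secretion with 10, mitochondria with 9, mating and signalling with 6, seripauperins with 5, stress and folding with 5, carbohydrate metabolism with 4, the cytosolic ribosome with 4, peroxisomes with 4, amino acids and nitrogen with 3, and cell wall, lipids and translation factors with 2 each. One row, YOL038W, named for the proteasome subunit PRE6, stood alone. The sorting was made after the rows were seen, and no class was tested.

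The mitochondrial class held the row with the largest difference. YGR049W is named for SCM4, a protein of the mitochondrial outer membrane. It was at 9.89, 9.59 and 9.80 on the 3 G12-CBS 72 h arrays, against 6.80, 6.72 and 7.01 in the control, 6.72, 6.81 and 6.89 in DS56 and 6.62, 6.75 and 6.91 in G12-CBS at 24 h. The 9 other arrays lay close together near the median of the table, and the 3 high arrays stood apart by 2.58. YDR322C-A, named for TIM11, subunit e of the ATP synthase, was at 9.22, 9.24 and 8.72 in G12-CBS at 72 h, 2.68-fold over the control at 7.70, 7.56 and 7.65. It lay lower in DS56, at 7.21, 7.08 and 7.21, and in G12-CBS at 24 h, at 7.18, 7.12 and 6.99. The control thus stood between G12-CBS at 72 h and the other 2 groups, without overlap. YKL192C, named for the mitochondrial acyl carrier protein ACP1, was at 8.07, 7.20 and 8.33, and no other array was above 6.68. Its replicate 2 lay well below the other 2 arrays of the group, which gave an SD of 0.59.

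The other mitochondrial rows differed less. YHL004W and YBR146W, named for the small subunit proteins MRP4 and MRPS9 of the mitochondrial ribosome, were 1.67-fold and 1.39-fold over the nearest group. YNL052W, named for the cytochrome c oxidase subunit COX5A, was at 7.05, 6.74 and 7.22, against 6.55 at most elsewhere. YJL104W is named for PAM16, part of the protein import motor, and was at 7.92, 7.93 and 7.57, against 7.12 at most elsewhere. YLR154W-C, at 8.39, 8.53 and 9.14, is named for TAR1, which lies antisense to a ribosomal RNA gene. The sources used do not say whether the labelling kept the strands apart.

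Of the cytosolic ribosome, 3 of the 63 large subunit rows and 1 of the 45 small subunit rows were among the 100. YHR010W, named for the large subunit protein RPL27A, was at 10.60, 9.05 and 10.21 in G12-CBS at 72 h. It was at 7.39, 7.42 and 6.96 in the control, 7.59, 7.83 and 7.75 in DS56 and 7.64, 7.55 and 7.72 in G12-CBS at 24 h. All 3 arrays were clear of the rest, but they differed among themselves by more than in any other of the 20 rows with the largest gaps (SD 0.81). YPR102C, named for RPL11A, was at 13.83 on all 3 arrays, 1.23-fold over the control at 13.58, 13.41 and 13.58. The 3 equal values are 1 of the few levels of the bright range and do not measure the spread of replicates. YPL143W, named for RPL33A, and YBL072C, named for the small subunit protein RPS8A, were 1.65-fold and 1.23-fold over the nearest group. Other rows of these lists went the opposite way: 5 large and 3 small subunit rows stood lowest in G12-CBS at 72 h. The median difference of G12-CBS at 72 h from the mean of the 3 other groups was -0.08 over each list, and -0.05 over all rows.

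The seripauperins are a family of small, very similar cell wall mannoproteins of S. cerevisiae that are known from growth with little oxygen and from cold. The list was made after the 100 rows were seen, and 5 of its 16 rows were among them. YLR037C (PAU23) was at 11.51, 11.58 and 11.44 in G12-CBS at 72 h, against 10.00, 9.97 and 10.03 in the control, 9.80, 9.71 and 9.77 in DS56 and 9.92, 9.97 and 9.87 at 24 h. This 2.85-fold difference came with an SD of 0.07, the smallest in G12-CBS at 72 h among the 20 rows with the largest gaps. YLL025W (PAU17) was at 11.99, 12.16 and 11.85, 1.96-fold over the nearest group, G12-CBS at 24 h, at 10.96, 10.90 and 11.21. YAR020C (PAU7) was at 10.40, 10.68 and 10.79, and its control values of 9.37, 8.19 and 8.87 were the most scattered of its 4 groups. YAL068C (PAU8) and YHL046C (PAU13), dimmer rows at 7.19 and 7.26 in G12-CBS at 72 h, were 1.35-fold and 1.24-fold over the nearest group. The other 11 rows of the family did not meet the rule. Since copies of this family are nearly alike, their probes may share targets, and the rows cannot be counted as separate observations.

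**Figure D3:**
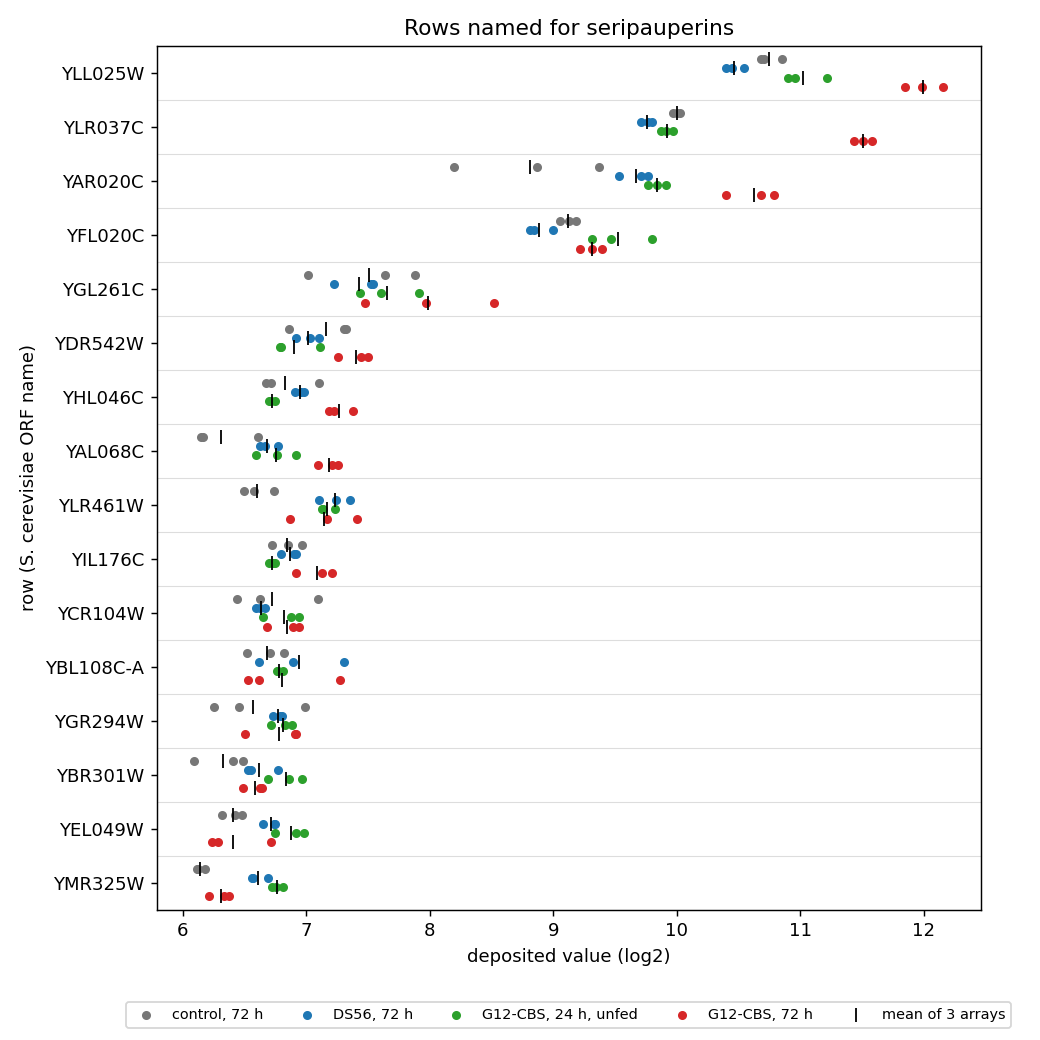
Log2 levels on the x axis of the 16 rows named for seripauperins, with 3 points for the arrays of each group and a tick at their mean. YLL025W, YLR037C and YAR020C are bright and have their 3 G12-CBS 72 h points (red) to the right of all others, whereas YFL020C, also bright, does not.

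In the peroxisomal class, YLR284C is named for ECI1, an enoyl-CoA isomerase that serves the oxidation of unsaturated fatty acids. It was at 8.03, 8.12 and 8.22 in G12-CBS at 72 h, 2.82-fold over the control at 7.12, 6.51 and 6.24. DS56 and the 24 h cultures lay between 6.44 and 6.54, so the nearest value was that of a single control array. YNL202W, named for SPS19, a dienoyl-CoA reductase of the same pathway, was at 7.77, 8.47 and 7.81, and 1.67-fold over DS56. YPL147W, named for PXA1, a subunit of the fatty acyl-CoA transporter of the peroxisome, was at 6.84, 6.77 and 6.69, and 1.30-fold over DS56. With YGL184C, these made 4 of the 14 peroxisomal rows, a list also made after the rows were seen. The other 10 rows did not meet the rule, and the list's median difference from the mean of the 3 other groups was -0.01.

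Amino acid and nitrogen metabolism was represented by few rows. YGL184C is named for STR3, a cystathionine beta-lyase, which releases homocysteine from cystathionine. It was at 7.04, 7.34 and 7.69 in G12-CBS at 72 h, 2.06-fold over the nearest group. The control was at 6.24, 6.13 and 6.21, DS56 at 6.37, 6.30 and 6.27, and G12-CBS at 24 h at 6.31, 6.14 and 6.41, all below the median of the table. It was the single row of the 23 on the sulfur amino acid and methyl cycle list to meet the rule. On that list 2 rows stood lowest in G12-CBS at 72 h: YER043C, named for S-adenosylhomocysteine hydrolase (SAH1), at 7.28 ± 0.03 (SD, n = 3) against 7.94 to 8.08 as means of the other groups, and YFR030W, named for a subunit of sulfite reductase (MET10), at 6.25 ± 0.04 against 6.42 to 6.59. YDL215C, named for the NAD-dependent glutamate dehydrogenase GDH2, which releases ammonium from glutamate, was at 9.0, 9.51 and 8.87. It was 3.28-fold over the control at 7.48, 7.67 and 7.08, and the DS56 and 24 h values of 6.99 to 7.29 overlapped with the control. YMR042W, named for the arginine regulator ARG80, was at 7.11, 7.15 and 7.29, and YIR034C, named for the lysine biosynthesis enzyme LYS1, was 1.60-fold over the nearest group.

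YOR311C is named for DGK1, the diacylglycerol kinase that makes phosphatidic acid. It was at 9.77, 9.47 and 9.40 in G12-CBS at 72 h and at 8.27, 8.25 and 8.27 in the control, a 2.42-fold difference. DS56 lay at 7.47, 7.28 and 7.21 and G12-CBS at 24 h at 7.29, 7.12 and 7.05, so the control again stood between. YHL020C, named for OPI1, a repressor of phospholipid synthesis genes that binds phosphatidic acid, was 1.25-fold over the control at a level of 7.02.

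The class of RNA and transcription held 3 of the 14 rows at 2-fold or more. YMR180C, named for the RNA triphosphatase CTL1, was at 8.43, 7.86 and 8.52, 3.07-fold over DS56, with all other arrays between 6.41 and 6.75. YNL230C, named for elongin A (ELA1), was at 8.57, 7.43 and 8.03, with a wide spread (SD 0.57) and no other array above 6.90. YBR188C, named for the splicing factor NTC20, was at 7.85, 7.92 and 7.72, against 6.80 at most elsewhere. The remaining 10 rows of the class were 1.11-fold to 1.62-fold over the nearest group.

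YDR106W, named for ARP10, an actin-related protein of the dynactin complex, was 1 of the bright rows, at 9.84, 9.92 and 9.53. The other 9 arrays lay between 8.54 and 8.91, where DS56 overlapped with both other groups, the 24 h arrays lay below the control arrays, and none of the differences was called. YPL192C, named for PRM3, a protein of nuclear fusion in mating, was at 7.44, 8.07 and 8.01, 2.22-fold over the control. YDR202C, named for RAV2, which helps to assemble the vacuolar ATPase, was at 7.61, 7.18 and 7.65 and 1.91-fold over G12-CBS at 24 h. The vacuolar ATPase itself gave 2 of 6 rows, YOR270C (VPH1) and YHR026W (VMA16), 1.27-fold and 1.2-fold over the nearest group, and YEL027W (VMA3) stood lowest instead, at 11.32 ± 0.03 (SD, n = 3) against 11.67 to 13.47. YNR061C and YKR011C, with no role given here, were 2.08-fold and 1.88-fold over the nearest group.

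The other classes were made up of small differences. The 10 rows of cytoskeleton and cell cycle were 1.15-fold to 1.87-fold over the nearest group, the 10 of vacuole and secretion 1.2-fold to 1.91-fold, and the 6 of mating and signalling 1.21-fold to 2.22-fold. The 20 rows with no role given ran from 1.16-fold to 2.08-fold. Their medians lay between 1.29 and 1.41.

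The 5 stress and folding rows were 1.26-fold to 1.71-fold over the nearest group. The largest of these folds belonged to YHR053C, named for the metallothionein CUP1-1, at 7.55, 8.30 and 7.76, a gene with a near-identical copy in S. cerevisiae, so this row is uncertain. YDR519W, named for FPR2, a proline isomerase of the endoplasmic reticulum, at 8.18, 7.75 and 7.70, was 1.52-fold over G12-CBS at 24 h. YDR353W, named for thioredoxin reductase (TRR1), was at 8.74, 8.74 and 8.67, 1.44-fold over the control at 8.16, 8.23 and 8.19. YML028W, named for the peroxiredoxin TSA1, was at 9.34, 9.74 and 9.47, 1.26-fold over the control at 9.08, 9.24 and 9.22. These made 2 of 11 rows on the list of antioxidant genes, on which 2 others stood lowest in G12-CBS at 72 h. YCL043C, named for protein disulfide isomerase (PDI1), was the 1 chaperone row of 21, at 6.93, 6.93 and 6.90, and 1.31-fold over the control. In carbohydrate metabolism YJR009C, named for the glyceraldehyde-3-phosphate dehydrogenase TDH2, had the smallest fold of all 100 rows, 1.05, at 12.19, 12.27 and 12.23 against 12.16 on all 3 control arrays. YAL054C, named for acetyl-CoA synthetase ACS1, was 1.21-fold over G12-CBS at 24 h, and the central carbon list held no other row of the 100 among its 35.

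**Figure D4:**
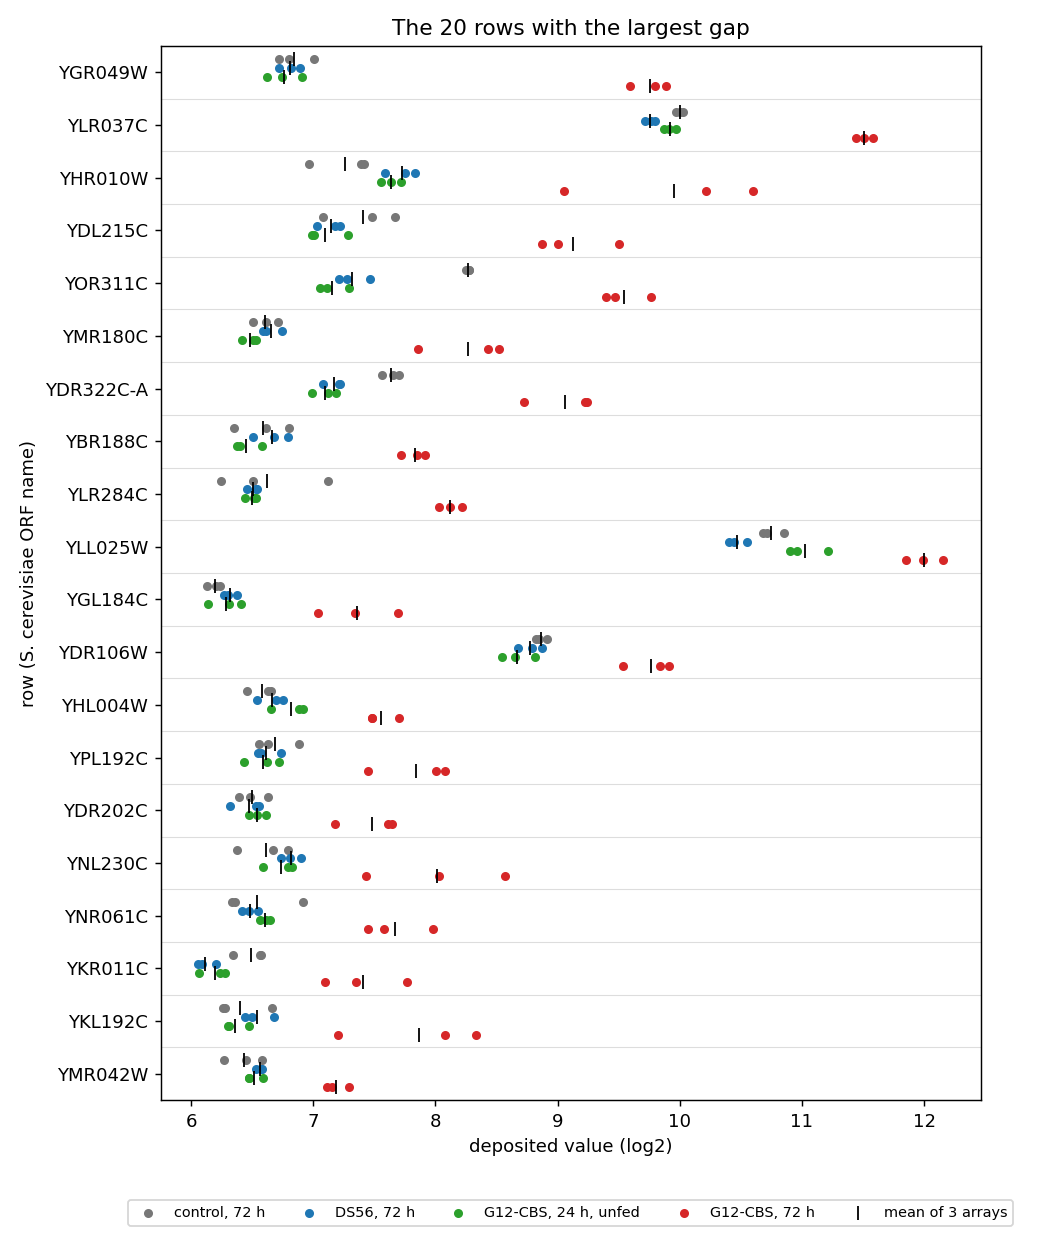
Log2 levels on the x axis of the 20 rows with the largest gap, with 3 points for the arrays of each group and a tick at their mean. The 3 G12-CBS 72 h points (red) lie to the right of the other 9 in each row. In YOR311C and YDR322C-A the control points (grey) lie between them and the points of DS56 and G12-CBS at 24 h.

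The remaining lists gave 2 of 22 rows for mitochondrial ribosomal proteins, 2 of 20 for the respiratory chain and ATP synthase, 1 of 17 for the proteasome, 0 of 8 for histones and 0 of 20 for translation factors. Rows lowest in G12-CBS at 72 h numbered 3 on the respiratory list, 3 on that of translation factors, 2 on that of chaperones, 1 on that of central carbon and 0 on the other 3 of these lists. Across the table the 100 rows made up 4.18%. No list was tested, and many hold so few rows that 1 row shifts the share by several points.

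The rule did not set the other 3 groups against each other, and their differences were tested with limma in the 9 arrays of the control, DS56 and G12-CBS at 24 h, with p-values adjusted over all 2390 rows. Of the 100 rows, 13 differed between DS56 and the control at an adjusted p of 0.05, 3 higher and 10 lower in DS56. Among all rows 14.4% were called higher and 7.82% lower. Between G12-CBS at 24 h and the control 13 rows differed, 4 higher and 9 lower at 24 h, against 15.3% and 8.54% of the table. Between G12-CBS at 24 h and DS56, 1 row was higher and 1 lower, against 0.628% and 0.46%. In the 2 comparisons with the control, the lower calls were near the share of the table and the higher calls were below it. The comparison of the 24 h cultures with DS56 had 1 row in each direction, too few to set against a share. The rule keeps every array of the control, DS56 and the 24 h cultures below G12-CBS at 72 h. This cap holds for the 3 groups alike and can limit calls in both directions. Neither the higher nor the lower counts are therefore read as a result. With the arrays centred on their medians, 52.2% of all calls for DS56 against the control were higher, in place of 64.7%. For the 24 h cultures against the control it was 52.25%, in place of 64.15%. These are shares of the calls, not of the rows. The members' calls were then 3 higher and 11 lower in each, and are not set against a share of all rows here.

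In all, 16 of the 100 rows were called in at least 1 of these comparisons. The 2 comparisons with the control share its arrays, so their values are given side by side and not as repeats. A difference at 24 h is that of the 24 h G12-CBS cultures from the 72 h control, unless DS56 is named. These cultures differed from the control in strain, time and feeding, and from DS56 in CYS4, time and feeding. In neither comparison can these be told apart. YPR102C, named for RPL11A, showed the largest differences. It was at 12.42, 12.19 and 12.42 in DS56 and at 10.85, 11.01 and 10.85 in G12-CBS at 24 h. DS56 was lower than the control by a log2 difference of -1.18 ± 0.11 (SE, limma's adjusted p = 2e-06), and the 24 h cultures by -2.62 ± 0.11 (adjusted p = 6.92e-11). The 24 h cultures were lower than DS56 by -1.44 ± 0.11 (adjusted p = 1.12e-06). The order was therefore G12-CBS at 72 h, control, DS56 and G12-CBS at 24 h, with no overlap between neighbours. Within the control, DS56 and the 24 h cultures, some values of YPR102C were equal levels of the bright range. Equal values of this kind do not measure the spread of replicates, which limits its SEs and p-values.

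YOR311C (DGK1) was lower in DS56 than in the control by a log2 difference of -0.95 ± 0.11 (SE, limma's adjusted p = 1.49e-05). The 24 h G12-CBS cultures differed from the 72 h control by -1.11 ± 0.11 (adjusted p = 2.65e-06). YJR120W, with no role given here, was at 8.76, 8.43 and 8.65 in the control, 7.89, 7.77 and 7.89 in DS56 and 7.86, 7.86 and 7.94 at 24 h. Its differences from the control were -0.76 ± 0.11 in DS56 (adjusted p = 2.04e-04) and -0.73 ± 0.11 at 24 h (adjusted p = 2.63e-04). YLR154W-C (TAR1) differed from the control by -0.74 ± 0.11 in DS56 (adjusted p = 1.88e-04) and by -0.45 ± 0.11 at 24 h (adjusted p = 0.00731). In these 3 rows the control was the next highest group after G12-CBS at 72 h, which is highest by the rule. Over all rows, 22.2% were called between DS56 and the control and 23.8% between the 24 h cultures and the control. Between the 24 h cultures and DS56 it was 1.09%. The control thus differed from these 2 groups across the table, not in these rows alone.

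YJR009C (TDH2) was at 11.51 on all 3 DS56 arrays and at 11.80, 11.90 and 11.80 at 24 h. It differed from the control by -0.65 ± 0.10 (SE) in DS56 (limma's adjusted p = 2.91e-04) and by -0.33 ± 0.10 at 24 h (adjusted p = 0.0279). The 3 control values were also equal, at 12.16. Such equal values of the bright range do not measure the spread of replicates, which limits these SEs and p-values. YML028W (TSA1) was lower than the control at 24 h by a log2 difference of -0.75 ± 0.14 (adjusted p = 9.59e-04) and in DS56 by -0.50 ± 0.14 (adjusted p = 0.0157). YDR353W (TRR1) and YDR322C-A (TIM11) were also lower in both groups, with differences of -0.56 and -0.47 in DS56 (adjusted p = 0.00153 and 0.006) and of -0.46 and -0.54 at 24 h (adjusted p = 0.00535 and 0.00221). YKR011C and YKL012W, the latter named for the splicing factor PRP40, were called lower in DS56 at -0.37 and -0.32 (adjusted p = 0.0275 and 0.0403). YJL104W was called lower at 24 h at -0.39 (adjusted p = 0.0355).

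Some of these calls were lost when 1 array was left out. YML028W was not called in DS56 without DS56 replicate 1 or 3 (limma's adjusted p = 0.0648 and 0.0905), and YJR009C was not called at 24 h without 24 h replicate 1 or 3 (adjusted p = 0.104 and 0.0948). YKR011C lost its call without control replicate 1 or 2 or DS56 replicate 2 or 3 (adjusted p from 0.0519 to 0.094). YKL012W kept its call with just 1 of the 9 arrays left out, control replicate 3, and otherwise gave adjusted p-values from 0.0518 to 0.145. YJL104W kept its call in 3 of the 9 cases, without control replicate 1 or DS56 replicate 1 or 3, and otherwise gave 0.0575 to 0.161.

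Fewer rows went the other way. YAR020C (PAU7) was higher than the control by a log2 difference of 0.86 ± 0.20 (SE) in DS56, at 9.77, 9.53 and 9.71 (limma's adjusted p = 0.00642), and by 1.03 ± 0.20 at 24 h, at 9.84, 9.92 and 9.77 (adjusted p = 0.00175). YDR519W (FPR2) was at 6.93, 6.18 and 6.45 in the control. It was higher by 0.66 ± 0.15 in DS56 (adjusted p = 0.00575) and by 0.75 ± 0.15 at 24 h (adjusted p = 0.00215). In both rows the control arrays were scattered over a wider range than those of DS56 or of the 24 h cultures. YHR010W (RPL27A) was called higher in both at 0.47 and 0.38 (adjusted p = 0.0188 and 0.0463), YAL068C (PAU8) at 24 h at 0.45 (adjusted p = 0.0242), and YLL025W (PAU17) at 24 h against DS56 at 0.56 ± 0.12 (adjusted p = 0.0189). YLL025W lost that call when any 1 of the 6 arrays of its comparison was left out, with adjusted p-values from 0.0517 to 0.168. YHR010W lost the call at 24 h in 14 of 18 alternatives, including all 12 arrays in 1 model (adjusted p = 0.304). It lost the call in DS56 without control replicate 3 or DS56 replicate 2 or 3 (adjusted p from 0.0618 to 0.0911). YAL068C lost its call without control replicate 2 or 3 or 24 h replicate 1 or 2 (adjusted p from 0.0651 to 0.118). Over the seripauperin list, made after the rows were seen, 3 of 16 rows were called higher in DS56 than in the control, where 14.4% of all rows were. At 24 h 7 of the 16 were called higher than in the control and 2 higher than in DS56, against 15.3% and 0.628% of all rows. None was called lower in these comparisons. The called rows include YAR020C, YAL068C and YLL025W, given above. Since probes of this family may share targets, the rows are not separate observations, and the family was not tested as a set.

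**Figure D5:**
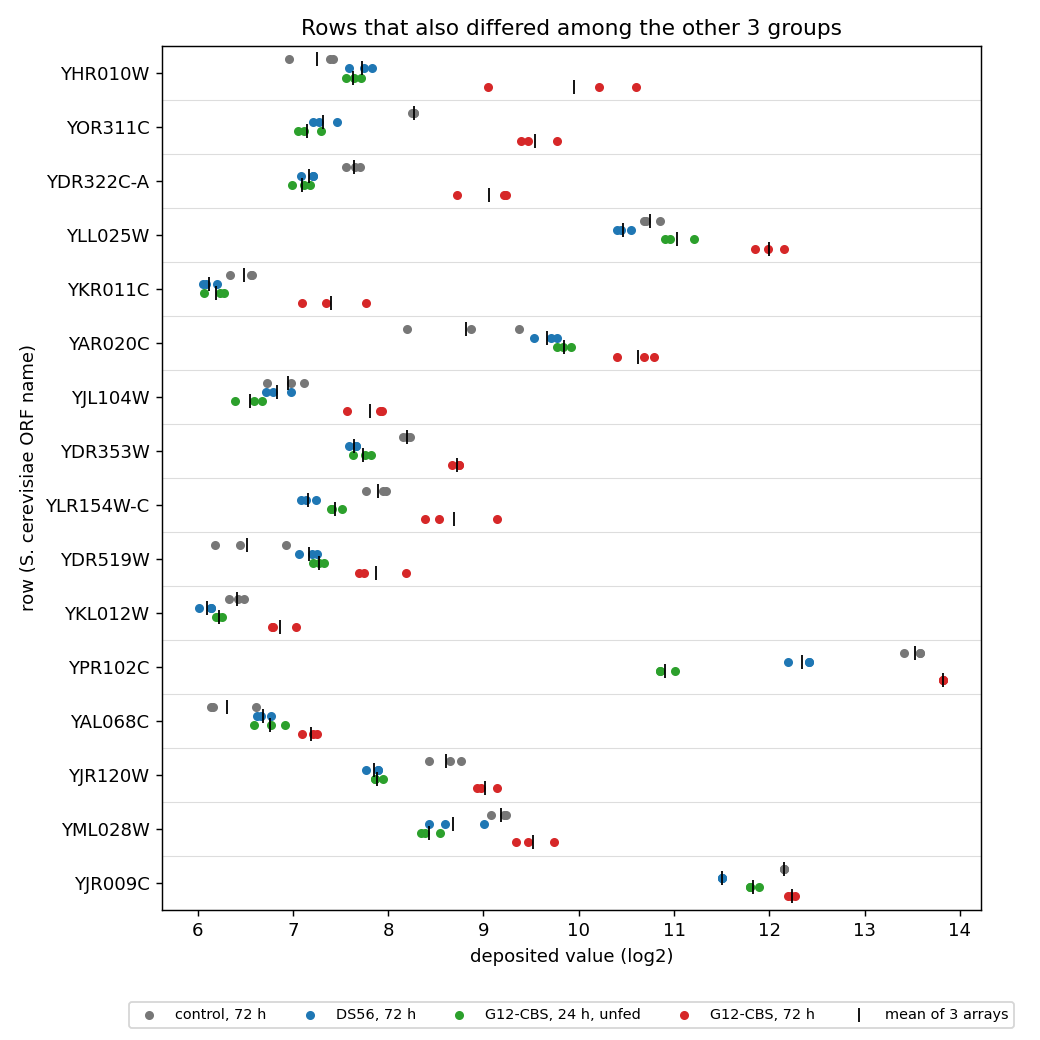
Log2 levels on the x axis of the 16 rows that were called between 2 of the 3 other groups, with 3 points for the arrays of each group and a tick at their mean. In YPR102C, YOR311C and YJR120W the control (grey) lies next to G12-CBS at 72 h (red), and in YAR020C and YDR519W it lies farthest from it.

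The 84 rows with no call include the leading row YGR049W, and their differences among the 3 groups were not shown to be 0. Among the 100 rows the nearest group was the control in 46, G12-CBS at 24 h in 32 and DS56 in 22. Over all rows the highest of these 3 groups was the control in 37.2%, G12-CBS at 24 h in 33.1% and DS56 in 29.7%. The median log2 difference of the 100 rows was -0.03 for DS56 against the control, where all rows gave 0.04, and -0.01 for the 24 h cultures against the control, where all rows gave 0.04.

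For several of the 100 rows the table also holds the row named for a paralog, a sister copy of the S. cerevisiae gene. These pairs were picked after the rows were seen, and none of the sister rows met the rule. YGR085C, named for RPL11B, had the order of YPR102C (RPL11A), at 9.24 ± 0.23 (SD, n = 3) in G12-CBS at 72 h, 8.95 ± 0.365 in the control, 8.39 ± 0.15 in DS56 and 7.79 ± 0.12 at 24 h. It was lower than the control in DS56 by a log2 difference of -0.57 ± 0.15 (SE, limma's adjusted p = 0.0159) and at 24 h by -1.17 ± 0.15 (adjusted p = 4.31e-05). The near-identical sequences of such a pair may share probe targets.

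Other sister rows had another order, and no such pair of rows is shown to measure separate K. phaffii genes. YIL111W, named for COX5B, was lowest in G12-CBS at 72 h, at 8.26 ± 0.19, while YNL052W (COX5A) was highest there. YIL111W was at 8.48 ± 0.07 in the control, 9.11 ± 0.12 in DS56 and 8.92 ± 0.11 at 24 h (SD, n = 3 each). YHR106W, named for the mitochondrial thioredoxin reductase TRR2, was lowest in G12-CBS at 72 h, at 7.11 ± 0.06, and highest at 24 h, at 7.97 ± 0.19, whereas YDR353W (TRR1) was highest at 72 h. YLR153C, named for the acetyl-CoA synthetase ACS2, was at 6.72 ± 0.33 in G12-CBS at 72 h and 7.14 ± 0.24 in the control. In DS56 it was at 8.46 ± 0.06 and at 24 h at 8.43 ± 0.11. It was higher in DS56 than in the control by 1.33 ± 0.13 on the log2 scale (SE, limma's adjusted p = 2e-06). At 24 h it was higher than in the control by 1.29 ± 0.13 (adjusted p = 1.89e-06). YML016C, named for the phosphatase PPZ1, was at 6.22 ± 0.15 in G12-CBS at 72 h, 6.29 ± 0.07 in the control, 6.67 ± 0.05 in DS56 and 6.68 ± 0.12 at 24 h, while YDR436W (PPZ2) was highest in G12-CBS at 72 h. The sister rows of TDH2 also differed from it: YGR192C (TDH3) was highest at 24 h, at 14.68, and YJL052W (TDH1) ranged from 6.81 to 6.98 as group means.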

How the data were processed

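The deposited table holds 1 log2 value for each of 2390 rows on 12 arrays. Per the submitters' processing notes the authors used RMA to make these log2 values. No further step was stated, and the table was used as deposited. The members, lists and comparisons were chosen with earlier results of these data known. The rows were picked with pandas 2.3.3, and folds are 2 to the power of differences of log2 means. Differences among the 9 arrays of the control, DS56 and G12-CBS at 24 h were fitted across all rows in 1 limma model of 3 groups without a block (version 3.58.1 under R 4.3.3; lmFit, eBayes, two-sided), adjusted by Benjamini-Hochberg over 2390 rows, with a threshold of 0.05. The G12-CBS 72 h arrays stayed out of that model because the rule had selected on their spread. SE is limma's moderated standard error and SD the spread of 3 arrays. The model was tested on simulated data with normal noise and a common SD for all rows of a group, without tied values or array offsets. That simulation checked the fitting and does not show how reliable the calls in the real table are. Named rows were the 20 with the largest gap, members of 12 lists of S. cerevisiae names by role, rows at the edge of the rule, and the 5 largest called differences in each direction. Other rows, 2 further lists (seripauperins and peroxisomal proteins) and the sister copies were chosen after their values were seen. Lists and roles come from general knowledge of S. cerevisiae, since no table here pairs the names with products, and no sequence is shown for that reason. The number of arrays limits the precision. The alternatives used other arrays (all 12, or the 6 compared), other scalings (quantile, median), a replicate block, no rows from the dimmest 25%, other variance models (trend and robust, array weights), limma's treat with a 1.2-fold bound, and 1 array fewer. Plots used matplotlib 3.10.9.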

Additional observations from a re-analysis of the deposited data

How the results depend on the processing

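The 100 rows became 109 after quantile normalization, 111 after median centring and 79 without the dimmest 25% of rows. A required gap of 0.2 left 41 and one of 0.5 left 20. Leaving out 1 array eases the rule by construction and gave 101 to 169 rows, with 155, 165 and 169 without G12-CBS 72 h replicate 1, 2 and 3. The calls among the 100 rows, 13, 2 and 13 for DS56 against the control, G12-CBS at 24 h against DS56 and G12-CBS at 24 h against the control, were 5, 1 and 5 against a 1.2-fold change, which asks for more than a difference from 0. Leaving out 1 array gave 9 to 15, 1 to 2 and 9 to 16. The replicate block gave 13, 2 and 12. Replicate numbers did not pair the arrays: deviations of same-numbered arrays correlated at -0.12 to 0.06. With the other alternatives these counts stayed within 1.5 times. The 28 called differences kept their direction in all 503 alternative fits and their call in 422. The calls lost most often were those of YHR010W at 24 h against the control (14 of 18), YKL012W (13 of 17), YJL104W (10 of 18), YKR011C (8 of 18), YLL025W (7 of 18), and YAL068C and YHR010W in DS56 (6 of 18 each), and the cause was not tested.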
